A study of Mus musculus with 8 samples.

Results

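Genes that separated CD69- T cells of skin graft recipients in rejection from CD69- T cells of naive mice were taken from 1 array a side. A gene was included where its normalized signals on the rejecting CD69- and the naive CD69- array were at least 1.5-fold apart and its probe was detected (detection p under 0.01) on the brighter of both. Of 6826 genes detected in that way, 275 were included, out of 16593 genes named on the array. They made up 4.03% of the detected genes. The fold between these arrays chose the genes, so it is given below as a description. With 1 array in each group no test could be made, and differences cannot be set against a spread between replicates.

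The cells were T cells from the spleen and lymph nodes of male C57BL/6 mice. Rejecting mice had received BDF1 tail skin without other treatment and were sampled on day 7. Early tolerant mice (day 21) and tolerant mice (day 100) carried the same kind of graft and had also been given a donor-specific transfusion and MR-1, an antibody that blocks CD40L. Naive mice had no graft. All T cells, those of naive mice included, had spent 20 to 21 hours in culture with dendritic cells grown from the bone marrow of the donor strain, and no array came from cells without them. They were then sorted by surface CD69 into CD69+ and CD69- cells. The sorting text in the labels names the same phenotype, CD3+CD69+, for both, so the fraction of each array was read from its title. How many mice were pooled for an array is not stated in the labels.

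CD69 is a surface protein that T cells show within hours of antigen contact, so CD69- cells are those of the culture that did not carry it when sorted. Resting T cells burn glucose and other fuels mostly in mitochondria, and activated T cells turn to glycolysis. In low oxygen, or under strong growth signals, the transcription factor HIF-1 accumulates and raises the genes of glucose uptake, glycolysis and oxygen sensing. Egln oxygenases use oxygen to mark HIF for destruction, and HIF itself raises Egln3.

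Between 9593 and 10308 probes were detected on each of the 8 arrays, with 9593 on the rejecting CD69- array and 9672 on the naive CD69- array. The raw median signal was 110 on the rejecting CD69- and 112 on the naive CD69- array, and after quantile normalization it was 113 on all. The normalized signal still holds the background of the array, so folds of dim genes are compressed. Cd3d, a chain of the T cell receptor complex, had a high signal on both arrays, 35300 in rejecting and 32626 in naive CD69- cells. All 14 pan-T markers on the array were detected and none was 1.5-fold apart. Of the markers of other cell types on the array, 22 of 36 dendritic and myeloid, 7 of 12 NK cell, 3 of 14 B cell and 2 of 13 granulocyte markers were detected, and the myeloid gene Lyz1 reached 3501 on the naive CD69- array. The B cell genes Cd79a and Ms4a1, the NK cell receptor gene Ncr1 and the dendritic cell integrin gene Itgax were not detected on either of these arrays. Cd69 itself had a signal of 1984 in rejecting CD69- cells, 1982 in early tolerant, 2001 in tolerant and 3083 in naive CD69- cells, against 5714 in rejecting and 7622 in naive CD69+ cells. The CD69- array of naive mice was thus the one that stood apart from the other 3 for Cd69, and it lay below every CD69+ array.

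Of the 275 genes, 107 were higher (1.57% of detected genes) and 168 were lower (2.46%) in rejecting CD69- cells. At 2-fold or more, 14 were higher and 51 lower, and at 3-fold or more 2 were higher and 21 lower. The median fold was 1.65 for the higher and 1.76 for the lower genes. Ifng had the largest fold among the higher genes, 4.49, and Vegfa among the lower genes, 6.81. The darker array did not detect 24 of the higher and 36 of the lower genes, and for these a lower bound of the fold was computed from the lowest detected signal of that array. That bound was under 1.5 for 17 of the 24 and 21 of the 36. Other detected probes of the same gene were present for 31 higher genes and had the same sign throughout in 28, and for 46 lower genes, with the same sign in 45. Just inside the threshold lay Plac8, Cenpm and Tex2 at log2 differences of 0.59 and Themis, Dnase2b and Helb at -0.59, and just outside it Septin6 (0.58), Btla (0.57) and Slco4a1 (0.57) and, lower, Nrp1, Cdkn1b and Ipcef1 (-0.58 each). RNA was taken from pools of cells, in which fewer cells of a type and less RNA per cell cannot be told apart.

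**Figure D1:**
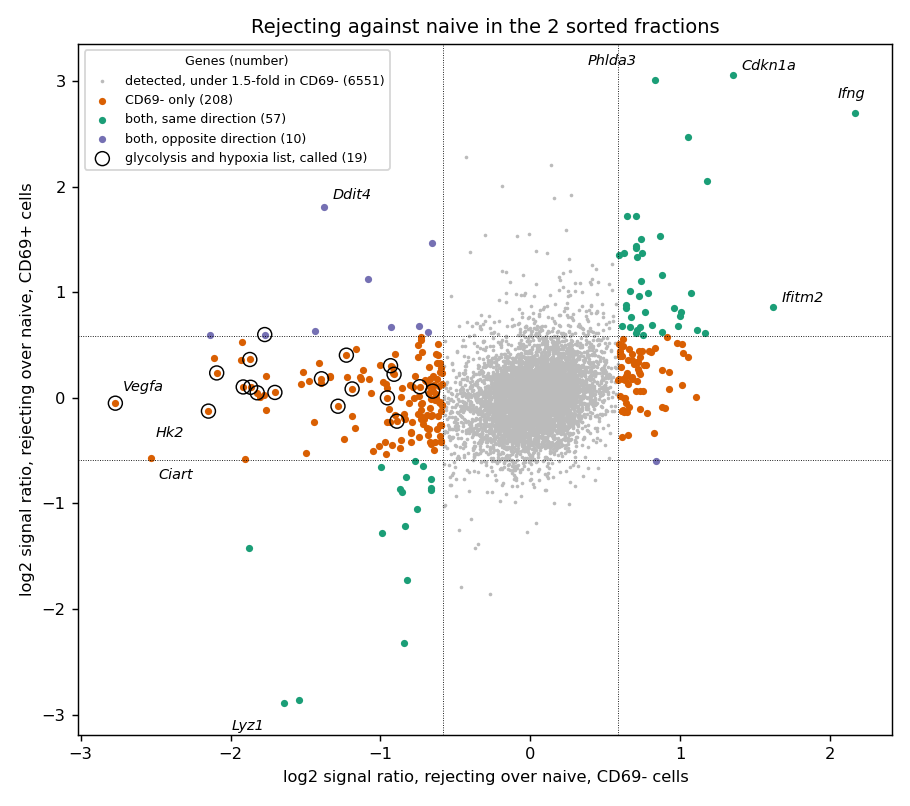
Log2 difference of normalized signal, rejecting minus naive, in CD69- cells (horizontal axis) and in CD69+ cells (vertical axis) for every gene detected on the brighter CD69- array, as points coloured by the fractions in which they were at least 1.5-fold apart (dotted lines). The circled genes of the glycolysis and hypoxia list lie to the left at a vertical position near 0, and Ifng and Cdkn1a lie to the right and high.

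Genes of glucose uptake, glycolysis and the response to low oxygen were lower in rejecting than in naive CD69- cells. A list of 24 such genes had 21 on the array and 20 detected, and 19 of the 20 were at least 1.5-fold lower in rejecting CD69- cells, against 2.46% of all detected genes. None was higher. The median log2 difference was -1.34 over the 20 genes and 0.02 over all detected genes. The rejecting array had the lowest signal of the 4 CD69- arrays for all 20, against 27.8% of all detected genes. Bnip3, a mitophagy receptor gene, was not detected. The list was taken up with its low values already known, so the count is a description of these arrays.

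Before the values, the promoters of the 4 genes of that list with the largest folds among those whose promoter held the HIF motif are shown, since HIF binds the core letters ACGTG or GCGTG. The 250 bases before the start given for each gene in the RefSeq promoter table, build GRCm38.p6, are printed on the strand of the gene, with each match of either motif in capitals. A match on the opposite strand appears as CACGT or CACGC. Hk2 (chr6:82774455-82774704, minus strand) is the gene of hexokinase 2, Slc2a1 (chr4:119108495-119108744, plus strand) that of the glucose transporter GLUT1, Pfkp (chr13:6648772-6649021, minus strand) that of platelet-type phosphofructokinase, and Egln3 (chr12:54203875-54204124, minus strand) that of an oxygen-sensing prolyl hydroxylase.
Hk2: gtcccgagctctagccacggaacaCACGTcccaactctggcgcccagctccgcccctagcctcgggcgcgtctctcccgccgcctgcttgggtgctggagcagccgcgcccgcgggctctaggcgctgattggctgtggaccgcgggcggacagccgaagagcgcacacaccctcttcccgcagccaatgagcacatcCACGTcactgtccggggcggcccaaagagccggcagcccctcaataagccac
Slc2a1: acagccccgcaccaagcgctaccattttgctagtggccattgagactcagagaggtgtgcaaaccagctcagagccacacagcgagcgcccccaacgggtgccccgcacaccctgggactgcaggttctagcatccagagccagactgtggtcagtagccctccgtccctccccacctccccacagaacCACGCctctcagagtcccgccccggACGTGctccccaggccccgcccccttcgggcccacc
Pfkp: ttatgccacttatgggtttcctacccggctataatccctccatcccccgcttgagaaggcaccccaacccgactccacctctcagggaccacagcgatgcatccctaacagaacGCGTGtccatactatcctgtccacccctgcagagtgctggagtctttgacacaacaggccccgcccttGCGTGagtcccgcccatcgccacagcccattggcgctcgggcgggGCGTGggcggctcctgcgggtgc
Egln3: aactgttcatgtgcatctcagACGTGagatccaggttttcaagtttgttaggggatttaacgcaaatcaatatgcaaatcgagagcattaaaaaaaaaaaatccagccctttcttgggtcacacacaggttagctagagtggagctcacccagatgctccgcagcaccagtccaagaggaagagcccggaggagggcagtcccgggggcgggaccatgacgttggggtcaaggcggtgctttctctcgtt
The start used for Pfkp lies inside the span of the gene in the RefSeq gene table, which ends at 6649060. Hk2 held 2 matches of ACGTG, Slc2a1 held 1 of ACGTG and 1 of GCGTG, Pfkp held 3 of GCGTG, and Egln3 held 1 of ACGTG. The window of Vegfa held neither. Over both strands, ACGTG was present in 8 of the 18 promoters found for the 19 lower genes of the list (44.4%), in 44 of 137 promoters of all lower genes (32.1%) and in 20 of 85 of the higher genes (23.5%). The share was 23.1% of 5656 detected genes with a promoter in the table and 16.5% of all 27025 genes in it. Either ACGTG or GCGTG was present in 13 of the 18 (72.2%), in 59.9% of lower genes, in 55.3% of higher genes, in 59.1% of detected genes and in 38.6% of all genes. ACGTG is also part of the E-box CACGTG, which other factors bind. Among lower genes outside the list, 36 of 119 held ACGTG (30.3%). The letters describe these windows only and show no binding.

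Glucose enters T cells through GLUT1 and GLUT3. Slc2a1 had a signal of 2350 in rejecting CD69- cells, 7632 in early tolerant, 10864 in tolerant and 10024 in naive CD69- cells. It was 4.26-fold lower in rejecting than in naive CD69- cells, and all of the other 3 CD69- arrays lay above it. In CD69+ cells the same gene had 4963 in rejecting and 4216 in naive mice. Slc2a3, which encodes GLUT3, had 3436 in rejecting, 4948 in early tolerant, 8697 in tolerant and 8046 in naive CD69- cells (log2 difference -1.23). Slc16a3, a lactate exporter, was not detected on the rejecting CD69- array and was at least 1.11-fold lower there.

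Hexokinase traps glucose in the cell. Hk2 had 1030.5 in rejecting CD69- cells, 3332 in early tolerant, 5646 in tolerant and 4566 in naive CD69- cells, which made it 4.43-fold lower in rejecting cells. The CD69+ arrays held 10150.4 in rejecting and 11077 in naive mice, so the gap was seen in the CD69- fraction while CD69+ cells had high levels in both states. Hk1, the constitutive isoform, had a log2 difference of -0.89.

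Phosphofructokinase commits sugar to glycolysis. Pfkp had 3235 in rejecting CD69- cells, 6483 in early tolerant, 10949 in tolerant and 12203 in naive CD69- cells (log2 -1.92, -1.81 on another detected probe and -1.28 with the mean of its 3 probes). Pfkl, the liver-type subunit, had 2802 in rejecting, 7903 in early tolerant, 10315 in tolerant and 10216 in naive CD69- cells (log2 -1.87), although its other detected probe gave -0.27. Pfkfb3, which makes an activator of phosphofructokinase, was the 1 detected gene of the list that missed the threshold, with a signal of 128 in rejecting and 184 in naive CD69- cells.

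The enzymes further down the pathway were lower as well. Tpi1, triosephosphate isomerase, had 11115 in rejecting, 29638 in early tolerant, 40868 in tolerant and 39305 in naive CD69- cells (log2 -1.82), and its other probes gave -2.04 and -1.60. Aldoc and Aldoa, the brain-type and muscle-type aldolases, had log2 differences of -1.77 and -1.19, Pgam1, phosphoglycerate mutase, of -1.28, and Pkm, pyruvate kinase, of -1.39. Pkm had 8767 in rejecting, 19732 in early tolerant, 23921 in tolerant and 23035 in naive CD69- cells. Gapdh had 22006 in rejecting and 42625 in naive CD69- cells (log2 -0.95), with the caveat that the genome holds many near-identical copies of this gene. Ldha, which turns pyruvate into lactate, had a log2 difference of -0.74, and Pdk1, the kinase that closes pyruvate dehydrogenase, of -0.93. Pgk1 had dim signals of 129 in rejecting and 202 in naive CD69- cells, was not detected in rejecting cells and was at least 1.27-fold lower.

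Genes of oxygen sensing and its targets were lower too. Vegfa, which encodes a growth factor of blood vessels, had 147 in rejecting CD69- cells, 629 in early tolerant, 1104 in tolerant and 999 in naive CD69- cells. The rejecting array did not detect it, so it was at least 6.30-fold lower there, and another probe of Vegfa gave a log2 difference of -1.64, with -1.47 for the mean of its 3 probes. Egln3 had 516 in rejecting, 918 in early tolerant, 1810 in tolerant and 1889 in naive CD69- cells (log2 -1.87, or -0.88 averaged with a second probe that was not detected). Rejecting and early tolerant cells lay below tolerant and naive cells for this gene. P4ha1, a collagen prolyl hydroxylase, had 275 in rejecting and 895 in naive CD69- cells (log2 -1.70).

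Several of the lower genes with the largest folds outside the list are also known from the response to low oxygen. Hilpda, a lipid droplet protein gene, had 1568 in rejecting, 4594 in early tolerant, 9163 in tolerant and 6892 in naive CD69- cells (log2 -2.14). Ndrg1, a stress-responsive gene, had 629 in rejecting, 1800.0 in early tolerant, 2769 in tolerant and 2709 in naive CD69- cells (log2 -2.11). The mitochondrial protein genes Fam162a and Mgarp both had log2 differences of -1.93. Chosen after their values were seen, Egln1, the main oxygen sensor of the family, had 391 in rejecting and 1336 in naive CD69- cells (log2 -1.77, with -1.66 and -1.56 on other probes). Ak4, a mitochondrial adenylate kinase gene, was at least 3.06-fold lower in rejecting cells, and Bnip3l, a relative of Bnip3, had a log2 difference of -0.73.

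**Figure D2:**
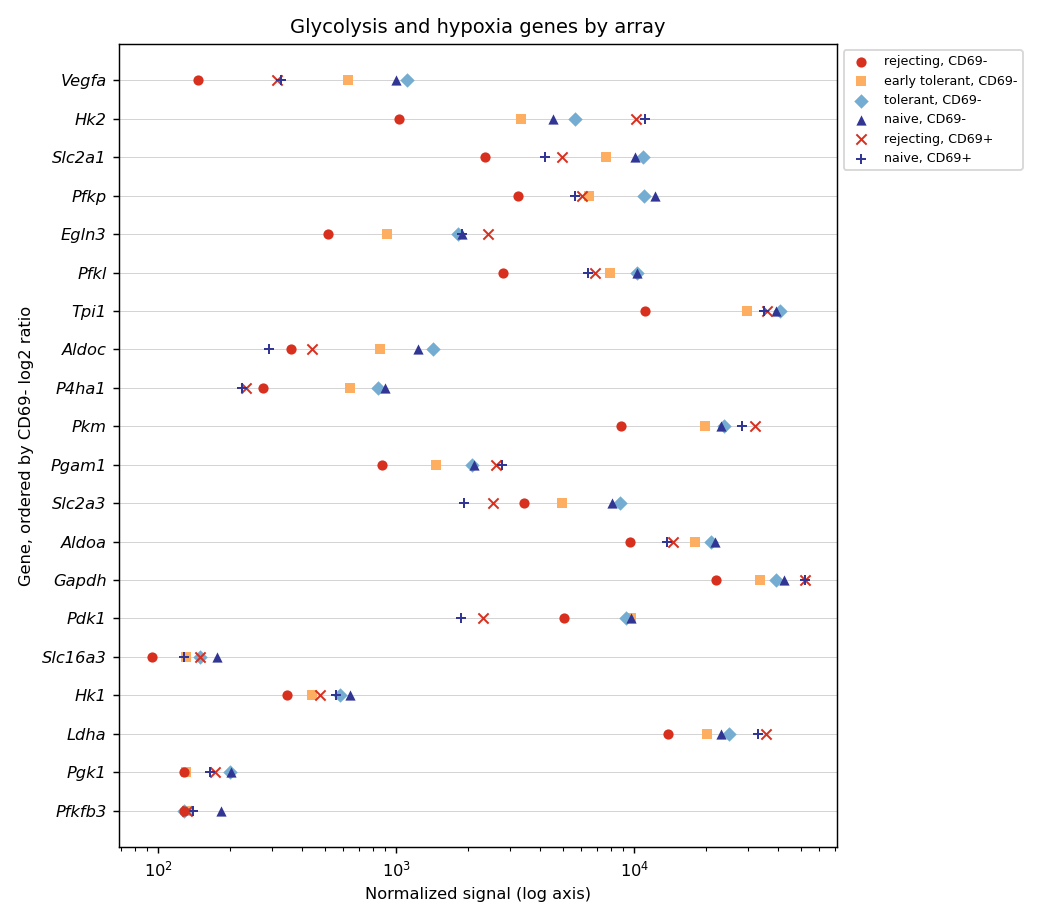
Normalized signal (log axis) of the detected glycolysis and hypoxia genes on the 4 CD69- arrays and on the rejecting and naive CD69+ arrays. The rejecting CD69- symbol is the leftmost of the CD69- symbols for every gene, with Hk2 at 1030.5 against 4566 in naive CD69- cells.

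In the CD69+ fraction the glycolysis and hypoxia list had a median log2 difference of 0.09, with 1 gene (Aldoc) at least 1.5-fold higher and none lower in rejecting cells. The background there was 7.17% of 7071 detected genes at least 1.5-fold apart, 4.27% higher and 2.9% lower. List counts in CD69+ cells, here and below, used the fold alone over genes detected in CD69- cells. The background shares also required detection on the brighter CD69+ array. Of the 19 lower genes of the list, 18 were past 1.5-fold in CD69- cells and within it in CD69+ cells, and Aldoc was past it in both, in opposite directions. The difference between fractions was not tested, since no residual degrees of freedom exist. Among CD69- arrays that did not choose the genes, early tolerant cells lay below tolerant cells in 18 of the 20, with a median log2 difference of -0.42. On that pair, again single arrays, 7 of the 20 were at least 1.5-fold lower in early tolerant cells, against 0.952% of all genes. Oxidative phosphorylation genes had 1 of 68 detected members lower (Ndufv3, a complex I subunit gene, log2 -0.60, or -0.45 with the mean of its probes), near the 2.46% lower of all detected genes, and none higher, with a median of 0.07.

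Some genes that antigen receptor signals switch on early were also among the lower genes. Egr1, a transcription factor made within an hour of stimulation, had 1520 in rejecting, 1905 in early tolerant, 2842 in tolerant and 5164 in naive CD69- cells (log2 -1.76). In CD69+ cells Egr1 had 4230 in rejecting and 3675 in naive mice. Fos, a subunit of AP-1, had 684 in rejecting, 740 in early tolerant, 1283 in tolerant and 1954 in naive CD69- cells (log2 -1.51). The naive signal was the highest of the 4 for both genes, and Cd69 itself went the same way. Of 16 detected immediate-early and heat shock genes, 4 were lower, against 2.46% of all detected genes, none was higher and 12 were within 1.5-fold, with a median of -0.25. Besides Fos these were Jun (log2 -0.74) and the phosphatase genes Dusp1 and Dusp2 (both -0.77). Jun had 566 in rejecting, 645 in early tolerant, 464 in tolerant and 946 in naive CD69- cells. Dusp1 had 3208 in rejecting, 3799 in early tolerant, 5371 in tolerant and 5460 in naive CD69- cells, so the tolerant array lay near the naive one. Nfkbia, the inhibitor of NF-kB, had 3774 in rejecting and 6904 in naive CD69- cells and was the 1 lower gene of 16 in the NF-kB list, whose median was -0.33, against 2.46% lower of all detected genes. Klf2, a factor of quiescent T cells that keeps them circulating, had 12223 in rejecting and 19153 in naive CD69- cells (log2 -0.65).

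Ciart, a repressor of the circadian clock, had 192 in rejecting, 805 in early tolerant, 1245 in tolerant and 1110 in naive CD69- cells (log2 -2.53), the second largest fold. Arrdc4, which limits glucose uptake, had 338 in rejecting, 741 in early tolerant, 560 in tolerant and 1244 in naive CD69- cells. Arrdc4 was lower in rejecting CD69+ cells as well, at 511 against 1369 in naive CD69+ cells. Pdxp, a pyridoxal phosphatase gene, had a log2 difference of -1.90 in CD69- and -0.58 in CD69+ cells.

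Lysozyme and some other myeloid genes were lower in rejecting cells of both fractions. Lyz1, a lysozyme gene of myeloid cells, had 1119 in rejecting, 7134 in early tolerant, 12656 in tolerant and 3501 in naive CD69- cells (log2 -1.65, or -0.42 with the mean of its probes). In CD69+ cells it had 964 in rejecting and 7169 in naive mice (log2 -2.89). Lyz2 had a log2 difference of -1.54 in CD69- (-0.92 with the mean of its probes) and -2.87 in CD69+ cells, and the copies Lyz1 and Lyz2 are so alike that their probes may share signal. Of 22 detected dendritic and myeloid markers, 6 were lower, 1 was higher and 15 were within 1.5-fold in rejecting CD69- cells, with a median of -0.26, while all detected genes had 2.46% lower and 1.57% higher. In CD69+ cells 14 were lower and 1 higher by fold alone, with a median of -0.78. Of genes detected on the brighter CD69+ array, 2.9% were lower and 4.27% higher. The 6 lower ones in CD69- cells included Lyz1, Lyz2 and the class II chains H2-Ea (at least 1.75-fold) and H2-Ab1 (log2 -0.82). The others were their invariant chain Cd74 (log2 -0.99) and the chemokine gene Ccl9 (at least 1.11-fold). Lgals3, a galectin that activated T cells also make, was the higher one. It had 2245 in rejecting, 1503 in early tolerant, 2676 in tolerant and 1110 in naive CD69- cells, so the tolerant signal was the highest and the naive one the lowest. The summed signal of the 22 markers was 25917 in rejecting, 32883 in early tolerant, 45129 in tolerant and 29963 in naive CD69- cells. This sum includes Lgals3 and is not a measure of the number of myeloid cells. Spi1, Itgam and Itgax were not detected on the rejecting or the naive CD69- array. Both detected granulocyte markers, S100a8 (log2 -0.92) and Fpr2 (at least 1.52-fold), were lower in rejecting CD69- cells, with a summed signal of 406 in rejecting and 754 in naive cells, and Hba-a1, a globin gene, was at least 1.55-fold lower. The part of other cell types in the differences of the T cell genes was not tested.

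Among the higher genes Ifng, the defining Th1 cytokine, came first. It had 738 in rejecting CD69- cells, 107 in early tolerant, 121 in tolerant and 164 in naive CD69- cells (log2 2.17, and 1.53 on another probe). In CD69+ cells it had 19248 in rejecting and 2975 in naive mice (log2 2.69), so rejecting cells were higher in both fractions and the CD69- level lay far below the CD69+ level. Of 9 detected effector cytokine and chemokine genes, 3 were higher, against 1.57% of all detected genes, and none was lower. The list median was -0.10, with 4 genes above 0 and 5 below it. Ccl3, a chemokine gene, was at least 1.43-fold and Il10, a suppressive cytokine gene, at least 1.09-fold higher, and neither was detected in naive CD69- cells. Ifitm2 and Ifitm3, neighbouring and closely alike genes of membrane proteins that block virus entry, had log2 differences of 1.62 and 1.05. Ifitm2 had 689 in rejecting, 243 in early tolerant, 397 in tolerant and 225 in naive CD69- cells. The wider interferon response list had 1 higher and 3 lower of 37 detected genes and a median of 0.00, and all detected genes had 1.57% higher and 2.46% lower. Cxcl10, a chemokine induced by interferon gamma, was among the lower ones. It had 306 in rejecting, 281 in early tolerant, 207 in tolerant and 612 in naive CD69- cells, so the naive array stood apart.

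Of the 30 gene lists, the cell cycle list held the most higher genes. Of 25 detected cell cycle genes, 9 were at least 1.5-fold higher in rejecting CD69- cells, against 1.57% of all detected genes, and none was lower. Their median log2 difference was 0.29. The rejecting array had the highest signal of the 4 CD69- arrays in 19 of the 25, against 33.0% of all detected genes. That place rests partly on the rejecting and naive signals that chose the genes. The list was also chosen with earlier results known, so both counts are descriptions. Nusap1, a spindle protein gene, had 423 in rejecting, 260 in early tolerant, 293 in tolerant and 212 in naive CD69- cells (log2 1.00, or 0.35 with the mean of its probes). Birc5, the mitotic survivin gene, had 435 in rejecting and 221 in naive CD69- cells (log2 0.98), and Top2a, the topoisomerase that untangles chromosomes, 405 in rejecting and 214 in naive CD69- cells (log2 0.92). The nucleotide synthesis genes Tyms (log2 0.76), Rrm2 (at least 1.16-fold) and Tk1 (at least 1.17-fold) were higher too, with the mitotic genes Plk1 (0.62) and Prc1 (0.68) and Uhrf1 (0.61), which copies DNA methylation marks after replication. The licensing genes Mcm2 to Mcm7 were all within 1.5-fold. For each of the 9 genes the CD69- signals lay below both CD69+ signals, and Nusap1 had 1710 in rejecting and 997 in naive CD69+ cells. Outside the list, Pclaf, a partner of the replication clamp, had 437 in rejecting and 202 in naive CD69- cells (log2 1.11), and Pbk, a mitotic kinase gene, was at least 1.45-fold higher with a CD69+ log2 difference of 0.01. The list had 1 gene higher and 1 lower in CD69+ cells by fold alone and a median of 0.06 there.

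**Figure D3:**
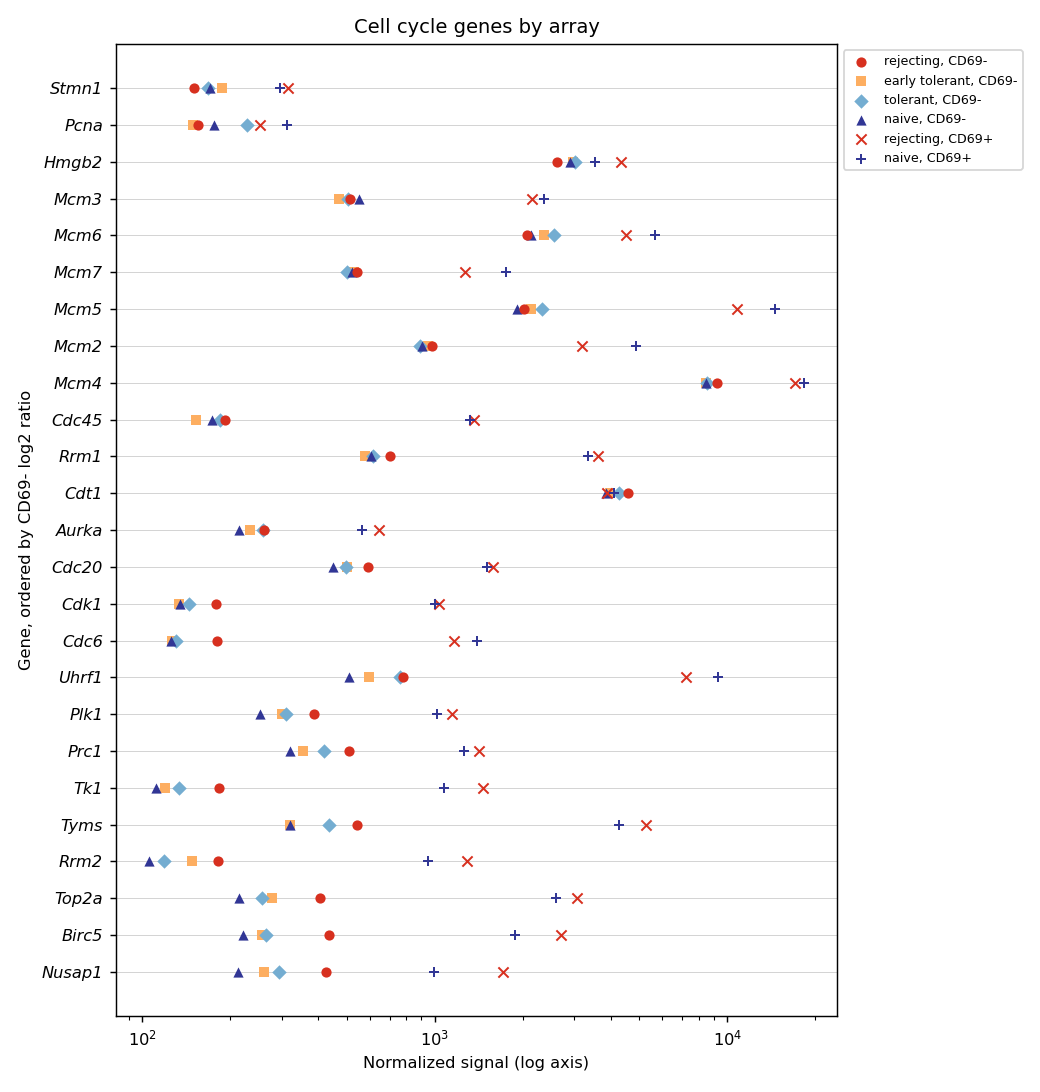
Normalized signal (log axis) of the 25 detected cell cycle genes on the 4 CD69- arrays and on the rejecting and naive CD69+ arrays. For Nusap1, Birc5 and Top2a the rejecting CD69- symbol lies to the right of the other CD69- symbols, and the CD69+ symbols lie further right.

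A few targets of the stress factor p53 were higher in rejecting CD69- cells. Cdkn1a, which encodes the cell cycle inhibitor p21, had 381 in rejecting, 163 in early tolerant, 229 in tolerant and 150 in naive CD69- cells. On this brightest probe it was at least 2.44-fold higher in rejecting cells. Another detected probe gave a log2 difference of 0.59, and the mean of the probes of the gene gave 0.84. In CD69+ cells Cdkn1a had 5915 in rejecting and 712 in naive mice (log2 3.05). Gtse1, a regulator of p53, had a log2 difference of 1.05 in CD69- (0.58 with the mean of its probes) and 2.47 in CD69+ cells, and Phlda3, an inhibitor of Akt, was higher by a factor of at least 1.15 in CD69- cells of rejecting mice. These were the 3 higher genes of 23 detected in CD69- cells, where the list median was 0.07 and 1.57% of all detected genes were higher. In CD69+ cells 16 of the 23 were higher by fold alone, with a median of 1.17. Of genes detected on the brighter CD69+ array, 4.27% were higher. Whether the fractions differed was not tested.

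Some receptor genes of activated and regulatory T cells were among the higher genes. Tnfrsf9, the costimulator 4-1BB, had 589 in rejecting, 347 in early tolerant, 485 in tolerant and 321 in naive CD69- cells (log2 0.88). Icos, a costimulator of the CD28 family, had 2211 in rejecting, 1425 in early tolerant, 1530 in tolerant and 1322 in naive CD69- cells (log2 0.74, or 0.50 with the mean of its probes). Il2ra, which encodes CD25, had 328 in rejecting and 191 in naive CD69- cells (log2 0.78), and -0.15 in CD69+ cells. Of 19 detected regulatory T cell genes, 4 were higher, against 1.57% of all detected genes, none was lower and 15 were within 1.5-fold, with a median of 0.30. The higher ones were Tnfrsf9, Il2ra, Il10 and the orphan receptor gene Gpr83 (log2 0.73). For Gpr83 the naive array, at 768, stood below the other 3, which lay between 1213 and 1303. Over the 19 genes, the median log2 difference from naive CD69- cells was 0.44 in tolerant and -0.03 in early tolerant CD69- cells. Foxp3, the lineage factor, had 687 in rejecting and 487 in naive CD69- cells, which is within 1.5-fold. Of 12 detected cytotoxic genes, 2 were higher, against 1.57% of all detected genes, and none was lower: Cst7, cystatin F, at 937 in rejecting and 591 in naive CD69- cells, and the killer cell receptor gene Klrd1 at 8719 in rejecting and 5646 in naive cells. Both were higher in rejecting CD69+ cells as well (log2 1.02 and 1.37). Cnr2, a cannabinoid receptor gene, had 4278 in rejecting, 2449 in early tolerant, 2427 in tolerant and 2570 in naive CD69- cells.

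Other higher genes came from several pathways. Elovl6, a fatty acid elongase gene, had 1126 in rejecting, 607 in early tolerant, 435 in tolerant and 502 in naive CD69- cells (log2 1.17). Abcb1b, a drug efflux pump gene, had 734 in rejecting, 306 in early tolerant, 315 in tolerant and 364 in naive CD69- cells (log2 1.01). Asns, asparagine synthetase, was at least 1.83-fold higher on its brightest probe (log2 0.32 with the mean of its probes), and Lgals1, a galectin of effector T cells, had 1741 in rejecting and 896 in naive CD69- cells. Nacc2, a transcriptional repressor gene, had 1019 in rejecting, 577 in early tolerant, 298 in tolerant and 506 in naive CD69- cells. Tg, known as the thyroglobulin gene, was higher by a factor of at least 1.61 in rejecting CD69- cells and had a log2 difference of 2.05 in CD69+ cells. Cxcr1, a chemokine receptor gene, had 2388 in rejecting and 1298 in naive CD69- cells and was at 125 in rejecting and 105 in naive CD69+ cells.

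**Figure D4:**
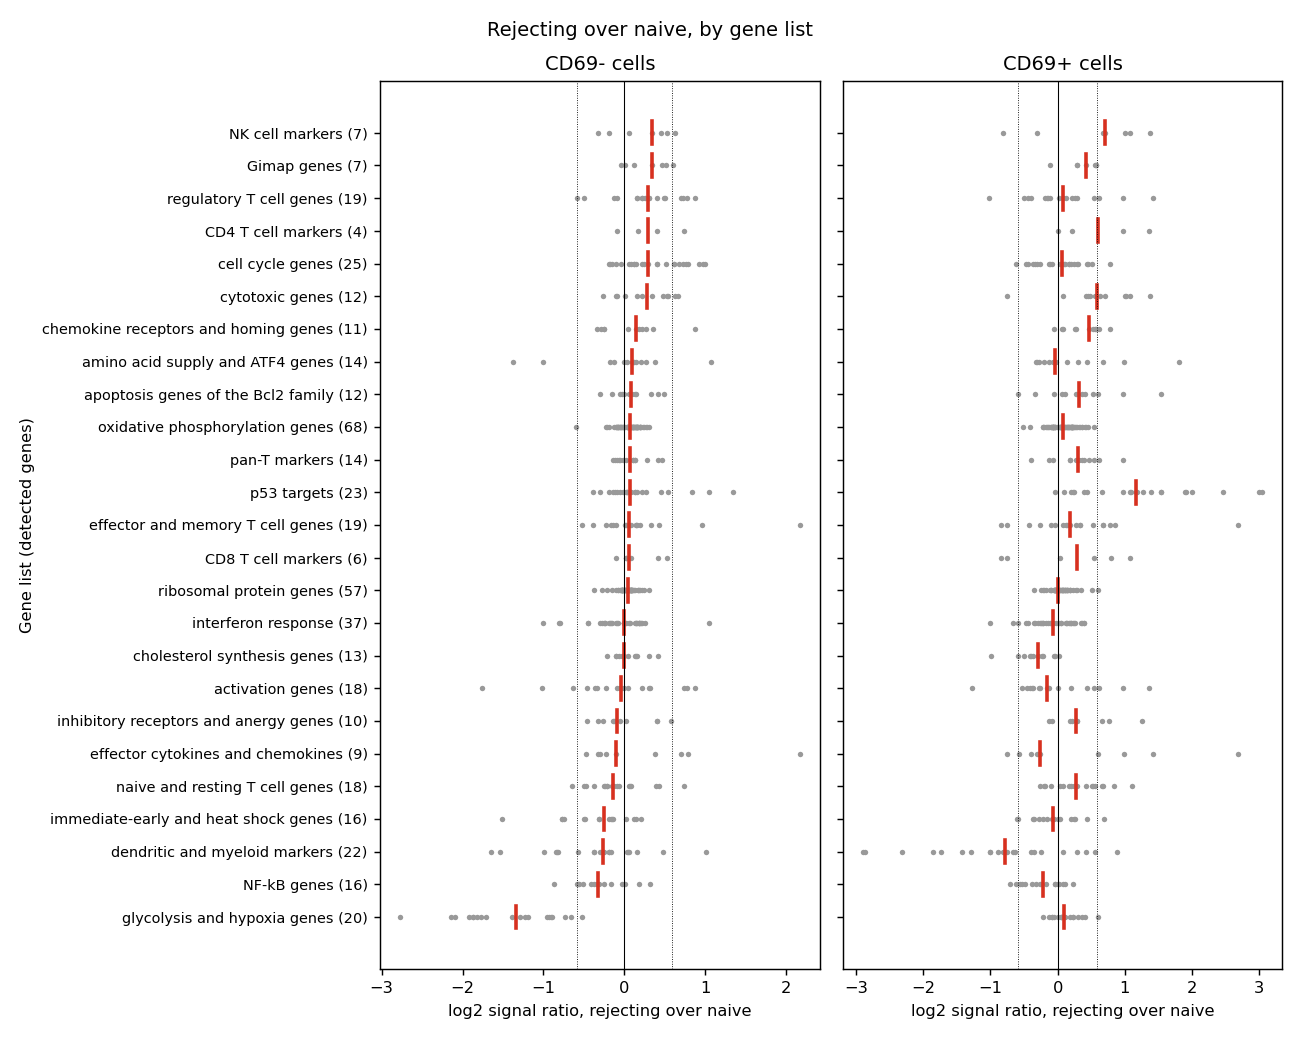
Log2 difference of normalized signal, rejecting minus naive, in CD69- cells (left) and CD69+ cells (right), for each gene list with at least 4 detected genes. Points are genes, red bars are medians and dotted lines mark 1.5-fold. The median of the glycolysis and hypoxia list lies at -1.34 in CD69- and 0.09 in CD69+ cells, and that of the p53 list at 0.07 in CD69- and 1.17 in CD69+ cells.

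The remaining lists are set against 1.57% higher and 2.46% lower of all detected genes. Effector and memory genes had 2 of 19 higher (Ifng, Lgals1) and none lower, and naive and resting genes had 1 of 18 higher (Cnr2) and 1 lower (Klf2). Of 18 activation genes, 3 were higher (Icos, Il2ra, Tnfrsf9) and 3 lower (Cd69, Egr1 and Irf8). The ATF4 list had Asns higher and Ddit4 and Trib3 lower of 14. Gimap8, a GTPase gene of lymphocytes, was the higher 1 of 7 Gimap genes, Icos of 4 CD4 markers, Klrd1 of 7 NK cell markers and Cxcr1 of 11 chemokine receptor and homing genes. No detected gene was 1.5-fold apart among 6 CD8 T cell markers, 10 inhibitory receptor and anergy genes, 13 cholesterol synthesis genes, 12 Bcl2 family genes, 57 ribosomal protein genes and 3 B cell markers. The same held for the 1 detected plasma cell gene and the 1 detected gamma-delta and innate-like gene.

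Of the 107 higher genes, 66 (61.7%) were within 1.5-fold in CD69+ cells, 40 were past it in the same direction and 1 in the opposite direction. Of the 168 lower genes, 142 (84.5%) were within 1.5-fold in CD69+ cells, 17 were past it in the same direction and 9 in the opposite direction. Of 7071 genes detected on the brighter CD69+ array, 7.17% were at least 1.5-fold apart there. Most detected genes were thus within 1.5-fold in that fraction. As shares of all detected genes, 0.967% were higher and 2.08% lower in CD69- cells alone by this rule. A stricter reading, within 1.2-fold in CD69+ cells, left 34 higher and 92 lower genes. Requiring the fractions' log differences themselves to be at least 1.5-fold apart left 26 higher and 101 lower genes. Neither CD69+ array detected 7 of the 66 and 21 of the 142. The median CD69+ log2 difference was 0.42 over the higher and -0.01 over the lower genes, against 0.00 over all detected genes. The CD69+ difference had the same sign for 92 of the 107 higher genes and for 86 of the 168 lower genes.

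The place of the rejecting and the naive array among the 4 CD69- arrays is given for the members as a description. The rejecting array lay outside the range of the other 3 CD69- arrays in the same direction for 102 of the 107 higher genes (33.0% of all detected genes) and 158 of the 168 lower genes (27.8%). It was at least 1.5-fold beyond all 3 for 37 higher genes and 72 lower genes. A detected gene that far beyond all 3 is past the threshold against naive and so a member by rule. These are therefore all such detected genes (0.542% and 1.05%), and the shares are no separate background. The naive array was the lowest of the 4 for 68 of the higher genes (26.1% of all) and the highest for 94 of the lower genes (20.2%). It was at least 1.5-fold below all of the others for 2 of the higher genes and as far above them for 7 of the lower genes. By the same rule these are all such detected genes (0.0293% and 0.103%). Choosing genes by the fold between these arrays favours both as outermost, so these counts describe the members. Set beside shares of all detected genes, they cannot show which side of the comparison stood apart. Over all 6 pairs of CD69- arrays, which share arrays, 264 genes were 1.5-fold apart between rejecting and early tolerant cells (3.86%), 380 between rejecting and tolerant (5.57%) and 275 between rejecting and naive cells. Without the rejecting array the counts were 107 between early tolerant and tolerant (1.57%), 101 between early tolerant and naive (1.48%) and 184 between tolerant and naive cells (2.7%). On the early tolerant and tolerant arrays, which the choice of genes did not use, 28 of the 168 lower genes were at least 1.5-fold lower in early tolerant cells (0.952% of all) and 1 was higher (0.513% of all), with a median log2 difference of -0.26. For the 107 higher genes the numbers were 2 higher and 5 lower, with a median of -0.07.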

How the data were processed

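Total RNA of 8 groups (4 recipient states, 2 fractions, 1 array each) was hybridised to Illumina mouse bead arrays, and the submitters' processing notes name BeadStudio 3.1.3. The authors deposited 2 tables: non-normalized mean bead intensity with a detection p-value per probe, per the file headers, and a series matrix of normalized intensity. The sorted values of its columns lay within 0.0827% of the means of the sorted raw columns, which is quantile normalization on a linear scale. Other upstream steps are not given in the sources used here.

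Probe identifiers of the raw table were out of register for 20106 of 25697 probes (78.2%), so detection p-values were joined to series matrix identifiers through the values, one to one, with a largest distance of 0.000597 log2 and at least 0.0370 to the next probe. Of the probes, 23978 had 1 symbol, none had several and 1719 had none. For each of the 16593 genes the probe with the highest mean over the 8 arrays was used. Scripts were tested on simulated data.

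Ratios were taken on log2 of the normalized signals. A signal is the normalized intensity in arbitrary units. Named genes were the 12 called genes at each end of the ratio, up to 4 called members of each list, the 10 at each end past the threshold in CD69- cells alone, the 8 at each end in both fractions, the 5 with the largest opposite difference, 3 genes on each side of each threshold, and Cd69 with the CD3 genes. Other genes of the described lists, of the promoter section and of the closing section are named as list members or as chosen after their values were seen. The genes and the 30 lists were chosen with earlier results of these data known. Alternatives were background correction with neqc in limma 3.58.1 (R 4.3.3, offset 16), median scaling, probe means, other detection and fold limits, and the printed identifiers. Precision is limited by the number of arrays, 1 in each group.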

Additional observations from a re-analysis of the deposited data

Results flagged for a closer look

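For 10 genes the rejecting and naive arrays were at least 1.5-fold apart in opposite directions in CD69- and CD69+ cells. With 1 array a side, the difference between fractions was not tested. Ddit4, an inhibitor of mTOR signalling, had 1694 in rejecting and 4408 in naive CD69- cells (log2 -1.38), against 7011 in rejecting and 2002 in naive CD69+ cells (log2 1.81). The metal-binding gene Mt1 had 1014 in rejecting and 2151 in naive CD69- cells (log2 -1.08), and 6144 in rejecting and 2813 in naive CD69+ cells (log2 1.13). The lipid droplet gene Hilpda had log2 differences of -2.14 in CD69- and 0.59 in CD69+ cells, and the aldolase gene Aldoc of -1.77 and 0.60. Eif4ebp1, a brake on translation, had -1.44 in CD69- and 0.64 in CD69+ cells. Plekha2, a phosphoinositide-binding adaptor gene, had -0.93 in CD69- and 0.67 in CD69+ cells, and Sertad1, a cell cycle regulator gene, -0.68 and 0.62. Ppp1r3b, a glycogen-targeting phosphatase subunit gene, had -0.74 in CD69- and 0.68 in CD69+ cells, and Dennd2c had -0.65 and 1.47. Neither Ppp1r3b nor Dennd2c was detected on the rejecting CD69- array, so they were at least 1.24-fold and 1.18-fold lower there, bounds under 1.5. Id1, an inhibitor of helix-loop-helix factors, was the 1 gene higher in rejecting CD69- cells (log2 0.84) and lower in rejecting CD69+ cells (log2 -0.60). Id1 was not detected on the naive CD69- array, so it was at least 1.32-fold higher in rejecting CD69- cells, also a bound under 1.5.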

How the results depend on the processing

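No paired analysis was possible because each group had 1 array, and for the same reason no array could be left out. All 78 named genes past the threshold kept their direction with neqc background correction, median scaling, probe means and quantile normalization within each fraction, the last chosen after seeing the data. They stayed past the threshold in 78, 73, 66 and 74 cases. The 19 lower glycolysis and hypoxia genes became 20, 19, 18 and 19, and the 9 higher cell cycle genes 11, 9, 5 and 9. Background correction, which widens the folds of dim genes, gave 256 higher and 323 lower genes in place of 107 and 168. Of these, 185 higher and 243 lower genes were past the threshold in CD69- cells alone (66 and 142 as reported), and genes apart in both fractions numbered 122 in the same direction and 19 in the opposite direction (57 and 10 as reported). Median scaling left 5 in the opposite direction. A 2-fold threshold left 14 higher and 51 lower genes, of which 10 and 46 were in CD69- cells alone, with 7 in both fractions in the same direction and 2 in opposite directions. A limit of 1.2-fold in CD69+ cells left 34 higher and 92 lower genes in CD69- cells alone, and a 1.5-fold difference between fractions left 26 higher genes. The printed probe identifiers gave 115 higher and 186 lower genes and shared 46 and 53 with those reported. Background in the signal and the single array a side limit the precision of dim genes.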

Other observations

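The following genes were chosen after their values were seen, and they stand for no gene group. The histone demethylase gene Kdm4b had 2845 in rejecting, 5422 in early tolerant, 5911 in tolerant and 6236 in naive CD69- cells (log2 -1.13 in CD69- and 0.18 in CD69+ cells). Jmjd6, a lysyl hydroxylase gene, had 3076 in rejecting, 5654 in early tolerant, 8005 in tolerant and 7022 in naive CD69- cells (log2 -1.19 in CD69- and -0.17 in CD69+ cells). Bhlhe40, a transcriptional repressor gene, had 1440.2 in rejecting, 1875 in early tolerant, 3791 in tolerant and 2848 in naive CD69- cells (log2 -0.98 in CD69- and 0.15 in CD69+ cells).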
